A study of Mus musculus with 47 samples.

Results

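H3K27ac peaks of female mouse liver were compared before and after loss of Ezh1 and Ezh2. The members were the peaks of the control and of the E1/E2-KO female list on autosomes 1 to 19, 48858 and 50426 peaks respectively, out of 100955 peaks on all chromosomes in these 2 lists and 498557 regions in the 12 lists of the series. A control peak was called kept when an E1/E2-KO peak overlapped it by at least 1 bp and lost when none did. An E1/E2-KO peak that no control peak overlapped was called gained. By this rule 13656 control peaks were lost (28.0% of the list, 95% interval 27.6 to 28.4%) and 12570 E1/E2-KO peaks were gained (24.9%, 24.6 to 25.3%), and these shares are the background for counts of peaks.

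The study mapped H3K27me3, H3K27ac and H3K4me1 by ChIP-seq in 47 liver samples of 7 week old mice of both sexes. Control mice were littermates with the floxed Ezh2 f/f alleles and no deletion. E1/E2-KO mice were Ezh1-/- in the whole body and carried the same floxed Ezh2 alleles together with an Alb-Cre transgene (AC+ in the labels), which deletes Ezh2 in hepatocytes, so that other liver cells retained Ezh2. Each female H3K27ac list was called by MACS2 on the joined reads of 4 livers, and gives positions without a score, a read count or a replicate.

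Therefore no test between the groups was possible on these lists, and a peak counted as lost or gained need not differ in signal beyond the spread between livers. The intervals are Wilson 95% intervals that cover counting error only, and the depth behind each list is unknown. A lost peak is one that no longer passed the caller's threshold, and in whole liver a weaker mark in each cell cannot be told apart from fewer cells that carry it.

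Ezh1 and Ezh2 are the alternative catalytic subunits of Polycomb repressive complex-2, which methylates lysine 27 of histone H3 and thereby marks silent genes. Acetylation of the same lysine (H3K27ac) marks active promoters and enhancers, and a given histone tail cannot carry both marks at this residue. H3K4me1 is found at enhancers, whether active or poised. In differentiated cells H3K27me3 commonly covers the CpG-rich promoters of transcription factors that direct the development of other tissues.

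The central 300 bases of 8 peaks are given below, as examples picked by hand among wide peaks and named promoters. The gained examples are CpG-rich and are not typical of gained peaks, whose shares follow below. They were read from the NCBIM37 (mm9) genome on the strand of the named gene, with each CpG in capitals. Gained peaks came first: Sall4, a zinc finger factor of embryonic stem cells and fetal liver, at chr2:168591633-168591932 (minus strand, in the gene, 102 bases in an annotated exon); Ebf3, a factor of neural and stromal lineages, at chr7:144501645-144501944 (minus strand, intron); Igf2bp3, a fetal RNA-binding protein, at chr6:49164108-49164407 (minus strand, 112 bases in a coding exon); and Tcfap2a, a neural crest and epidermal factor, at chr13:40826744-40827043 (minus strand, intron).
Sall4: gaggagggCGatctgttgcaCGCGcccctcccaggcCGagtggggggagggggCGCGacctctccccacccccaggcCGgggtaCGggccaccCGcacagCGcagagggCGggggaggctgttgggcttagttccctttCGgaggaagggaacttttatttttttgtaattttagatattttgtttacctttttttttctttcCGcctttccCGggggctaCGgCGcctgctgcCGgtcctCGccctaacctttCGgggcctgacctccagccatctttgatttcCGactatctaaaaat
Ebf3: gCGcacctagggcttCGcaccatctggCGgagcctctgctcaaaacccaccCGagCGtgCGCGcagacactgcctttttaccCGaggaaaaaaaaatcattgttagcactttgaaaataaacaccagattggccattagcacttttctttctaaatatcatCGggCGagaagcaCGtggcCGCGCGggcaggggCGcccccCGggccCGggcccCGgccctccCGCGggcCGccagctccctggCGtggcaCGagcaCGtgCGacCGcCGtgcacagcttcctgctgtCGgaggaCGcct
Igf2bp3: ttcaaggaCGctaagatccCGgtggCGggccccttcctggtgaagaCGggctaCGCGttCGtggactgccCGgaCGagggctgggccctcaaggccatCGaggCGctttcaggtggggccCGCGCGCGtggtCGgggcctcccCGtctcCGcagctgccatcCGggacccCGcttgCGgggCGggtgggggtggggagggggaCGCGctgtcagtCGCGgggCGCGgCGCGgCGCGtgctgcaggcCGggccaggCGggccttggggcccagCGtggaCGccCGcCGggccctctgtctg
Tcfap2a: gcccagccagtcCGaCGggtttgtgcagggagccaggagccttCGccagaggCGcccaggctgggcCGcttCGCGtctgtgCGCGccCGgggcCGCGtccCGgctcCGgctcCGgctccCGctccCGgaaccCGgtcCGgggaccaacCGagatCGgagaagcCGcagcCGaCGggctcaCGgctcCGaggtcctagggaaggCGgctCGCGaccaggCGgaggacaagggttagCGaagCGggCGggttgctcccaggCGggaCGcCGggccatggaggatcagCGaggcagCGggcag
These windows held 20, 29, 38 and 38 CpGs in the order given, and the observed over expected CpG ratio was 0.77, 1.00, 0.89 and 0.92. The lost peaks shown are those of Nceh1, a cholesteryl ester hydrolase (chr3:27088008-27088307, plus strand, intron), Palld, an actin-binding protein (chr8:64051955-64052254, minus strand, intron), and C6, a complement component (chr15:4677510-4677809, plus strand, intron, 376 bp after the start).
Nceh1: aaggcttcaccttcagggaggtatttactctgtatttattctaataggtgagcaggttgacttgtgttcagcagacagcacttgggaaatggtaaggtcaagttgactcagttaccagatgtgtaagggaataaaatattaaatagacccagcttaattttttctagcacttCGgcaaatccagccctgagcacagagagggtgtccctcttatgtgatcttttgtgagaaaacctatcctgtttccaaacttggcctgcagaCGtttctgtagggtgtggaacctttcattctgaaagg
Palld: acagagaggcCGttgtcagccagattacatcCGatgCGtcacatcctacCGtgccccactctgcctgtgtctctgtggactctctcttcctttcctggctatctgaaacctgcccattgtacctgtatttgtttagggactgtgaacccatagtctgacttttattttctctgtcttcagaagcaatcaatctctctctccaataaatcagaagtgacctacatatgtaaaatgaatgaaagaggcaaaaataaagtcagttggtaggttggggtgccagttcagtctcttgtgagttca
C6: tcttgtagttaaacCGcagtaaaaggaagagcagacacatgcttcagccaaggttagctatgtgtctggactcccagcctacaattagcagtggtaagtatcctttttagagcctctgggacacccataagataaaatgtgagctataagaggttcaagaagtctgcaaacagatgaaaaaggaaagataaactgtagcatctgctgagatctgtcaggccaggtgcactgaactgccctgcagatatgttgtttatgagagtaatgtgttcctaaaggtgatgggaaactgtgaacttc
They held 2, 4 and 1 CpGs. The kept peak upstream of Alb, the albumin gene, at chr5:90889116-90889415 (plus strand, between genes, 649 bp before the start) held 3 CpGs and is given for reference.
Alb: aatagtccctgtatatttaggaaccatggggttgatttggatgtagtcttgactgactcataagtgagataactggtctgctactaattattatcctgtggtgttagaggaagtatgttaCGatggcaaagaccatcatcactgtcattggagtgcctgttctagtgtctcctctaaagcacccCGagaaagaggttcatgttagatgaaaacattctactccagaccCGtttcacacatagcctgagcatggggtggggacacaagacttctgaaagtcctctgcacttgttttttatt

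Across the lists, the central 200 bp of gained promoter peaks were more often CpG-rich than those of lost ones, with a smaller difference elsewhere. A peak was called a promoter peak when it lay within 1 kb of the start of a protein-coding transcript, and distal otherwise. An observed over expected CpG ratio of at least 0.6 was found in 59.1% of kept, 38.1% of gained and 26.7% of lost promoter peaks. Among distal peaks the shares were 6.05%, 3.66% and 2.36%, beside 2.71% of 23939 windows of the same length placed every 100 kb along the autosomes. The median G+C content of distal peaks was 49.5% in kept, 48.5% in lost and 49.5% in gained peaks, and 42.0% in the windows along the autosomes.

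Short motifs of liver factors were searched on both strands of the same 200 bp; a match is a description of the letters and not a binding site. The HNF1 motif was present in 0.343% of kept distal peaks (0.274 to 0.429%), 0.187% of lost (0.125 to 0.281%) and 0.0792% of gained distal peaks (0.0417 to 0.150%), and in 0.238% of the windows along the autosomes. The HNF4 motif CAAAGTCCA was present in 0.587% of kept, 0.530% of lost and 0.449% of gained distal peaks, and in 0.213% of the windows. The forkhead motif TGTTTAC differed less, at 3.25%, 2.85% and 2.93%, with 2.94% in the windows. Counts for HNF1 were small, 23 lost and 9 gained peaks.

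Motifs of factors that act in many cell types were searched in the same way. The SP/KLF motif CCGCCC was present in 5.60% of kept, 3.47% of lost and 4.05% of gained distal peaks, and in 1.95% of the windows along the autosomes. The E-box CACGTG was present in 3.31%, 2.80% and 2.95%, with 2.13% in the windows. The AP-1 motif TGACTCA was nearly level between the classes, at 4.11%, 4.20% and 4.18% with 3.27% in the windows, as was the GATA motif AGATAAG, at 2.65%, 2.47% and 2.69% with 2.83%. The STAT motif TTCNNNGAA, which the growth hormone-activated STAT5 can bind, was present in 6.17%, 6.2% and 6.07%, with 7.31% in the windows. The ETS motif CCGGAAGT was present in 0.402%, 0.245% and 0.238%, with 0.134% in the windows, and the NF-kB motif in 1.03%, 0.986% and 1.02%, with 0.639%. The C/EBP motif TTGCGCAA was too rare to compare, at 0.0361% of kept, 0 of 12267 lost and 0.0352% of gained distal peaks.

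Peak width separated kept peaks from lost and gained ones. Kept control peaks had a median width of 619 bp (quartiles 397 and 986 bp), lost peaks 290 bp (241 and 384 bp) and gained peaks 258 bp (214 and 341 bp). In the narrowest decile of the control list 69.0% of the peaks were lost, and in the widest decile 0.368%. For gained peaks the same shares were 60.5% and 0.436%. Only 76 lost and 22 gained peaks were at least 1 kb wide, against 8576 kept control peaks. Lost peaks therefore held 15.0% of the control bases, less than their share of the peak count, and gained peaks held 14.5% of the E1/E2-KO bases.

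**Figure D1:**
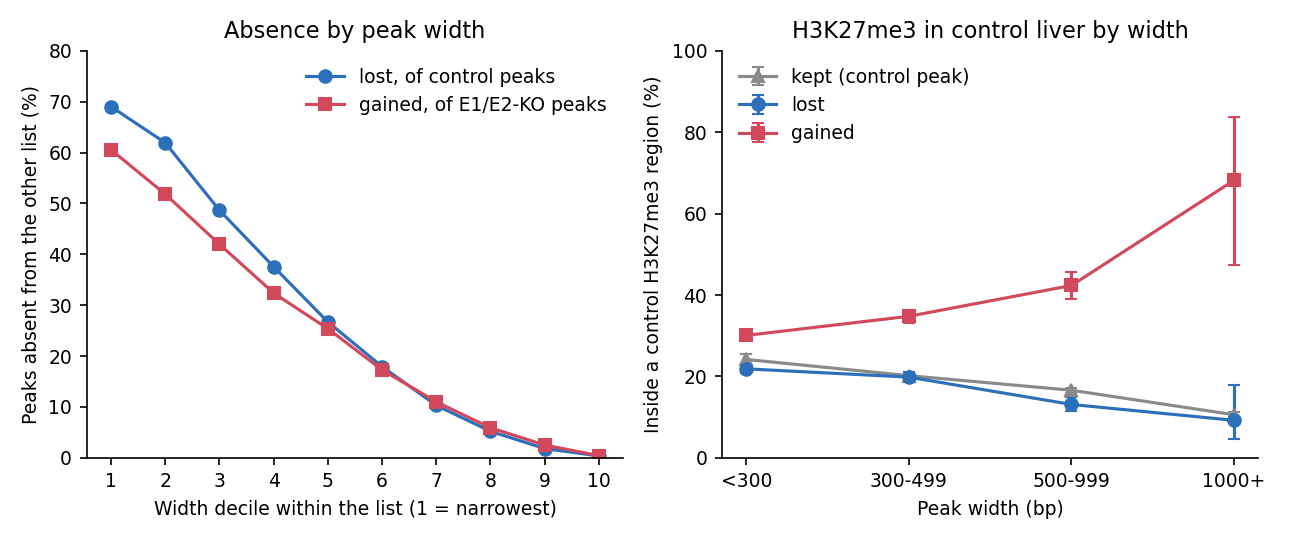
Left: percent of peaks absent from the other list (vertical axis) by decile of width within each list, circles for lost and squares for gained peaks, from 69.0% and 60.5% in the narrowest to 0.368% and 0.436% in the widest decile. Right: percent of peaks inside a control H3K27me3 region by width in bp for kept (triangles), lost (circles) and gained (squares) peaks, with Wilson 95% intervals; it is higher in wider gained peaks and lower in wider lost peaks.

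Peaks present in both lists were narrower after Ezh1/Ezh2 loss. In 30705 pairs of a control peak with a single E1/E2-KO partner, the median width was 584 bp in control and 498 bp in E1/E2-KO liver, and 69.4% of the pairs were narrower in E1/E2-KO liver (median ratio 0.89). A kept control peak was matched by at least 2 E1/E2-KO peaks in 3178 cases (9.03%), while 712 E1/E2-KO peaks (1.88%) joined at least 2 control peaks. In total the list covered 30.7 Mb in control and 26.0 Mb in E1/E2-KO liver. Because width at the caller's threshold moves with depth and enrichment, which are unknown here, the part of either in this narrowing was not tested.

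The position of gained peaks relative to H3K27me3 differed from that of lost and kept peaks. Of the gained peaks, 4061 (32.3%, 31.5 to 33.1%) lay in an H3K27me3 region of control female liver, against 20.1% of lost (19.5 to 20.8%) and 17.0% of kept control peaks (16.6 to 17.3%). These regions covered 25.5% of the autosomes. The share of gained peaks in H3K27me3 regions of E1/E2-KO liver was 27.4%, with 19.2% for lost and 19.3% for kept peaks, while those regions covered 25.6%. Of all gained peaks, 20.7% lay in H3K27me3 regions of both groups, 11.6% in control alone and 6.63% in E1/E2-KO alone.

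For gained peaks this share was larger in wider peaks. It was 30.1% below 300 bp, 34.8% from 300 to under 500 bp, 42.3% from 500 to under 1000 bp and 68.2% (15 of 22, 47.3 to 83.6%) from 1000 bp. For lost peaks the order was the opposite, with 21.9%, 19.8%, 13.1% and 9.21% (7 of 76, 4.53 to 17.8%), and kept control peaks went from 24.2% to 10.6%. Among peaks of 250 to under 400 bp, a range chosen after the data were seen, 32.8% of gained, 20.3% of lost (19.4 to 21.3%), 21.5% of kept control (20.5 to 22.4%) and 16.4% of kept E1/E2-KO peaks lay in control H3K27me3 regions. At this width the share of lost peaks was thus not above that of kept control peaks.

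**Figure D2:**
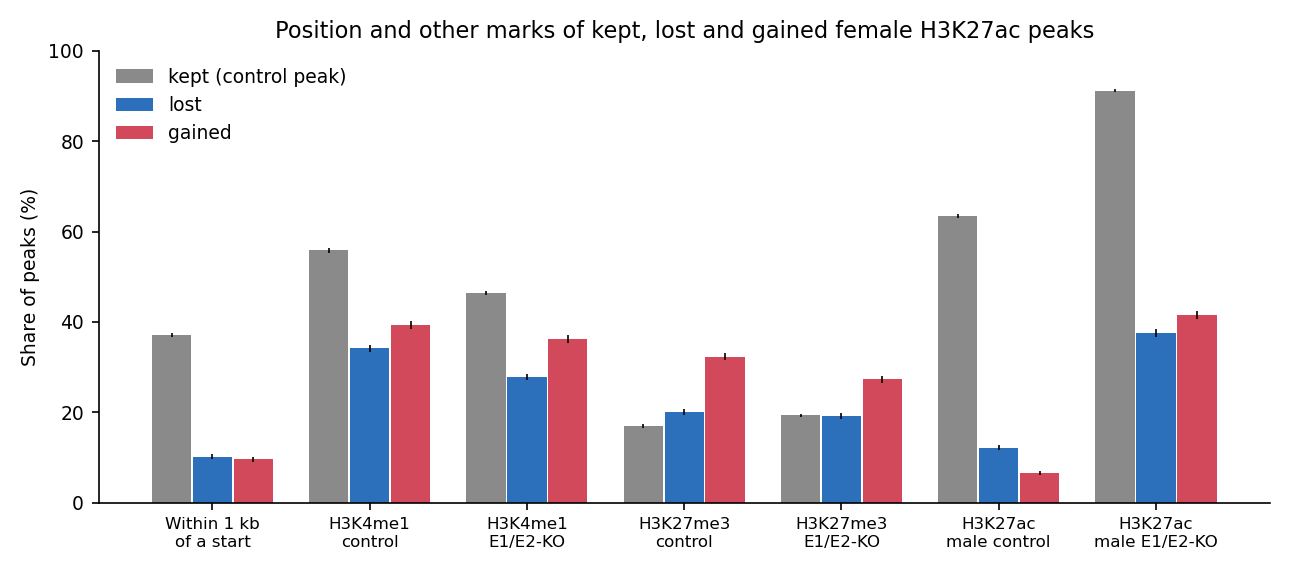
Percent of kept, lost and gained female H3K27ac peaks (vertical axis) that lay within 1 kb of a transcript start, or that overlapped H3K4me1, H3K27me3 or male H3K27ac peaks of the group named on the horizontal axis. Bars start at 0 and error bars are Wilson 95% intervals; gained peaks have the largest share in H3K27me3 regions (32.3% in control), and both changed classes have small promoter shares (10.2% and 9.61%).

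The 12 widest gained peaks, chosen by width after the data were seen, lay mostly in H3K27me3. The widest was the Sall4 peak (1372 bp, chr2:168591097-168592468). Others lay in Ebf3 (1170 bp, chr7:144501210-144502379), 14145 bp from the start of the kidney and eye factor Pax2 (1094 bp, chr19:44815847-44816940) and in Abcc4, a transporter that exports bile acids from hepatocytes (1146 bp, chr14:119093271-119094416). Of these 12 peaks, 10 lay in control H3K27me3 regions and 10 in E1/E2-KO ones. All 12 overlapped an H3K4me1 peak of control female liver, and all 12 overlapped an H3K27ac peak of E1/E2-KO male liver, while 2 overlapped one of control male liver.

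The 12 widest lost peaks were of another kind. They included the Nceh1 peak (1733 bp, chr3:27087292-27089024), the Palld peak (1543 bp, chr8:64051334-64052876), a peak 12510 bp from the start of Rsph9, a protein of cilia (1702 bp, chr17:46260418-46262119), and one 705 bp from the start of Car14, a carbonic anhydrase (1457 bp, chr3:95707175-95708631). Only the Car14 peak lay in H3K27me3, in both groups. An H3K4me1 peak of control liver overlapped 6 of the 12. A male H3K27ac peak overlapped 9 in each group, in livers that did not enter the rule.

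Both changed classes were mainly distal. Promoter peaks made up 37.1% of kept control peaks (36.6 to 37.6%) but 10.2% of lost (9.68 to 10.7%) and 9.61% of gained peaks (9.11 to 10.1%). Distal peaks within a protein-coding gene were the most frequent changed class, 54.2% of lost and 50.5% of gained peaks against 33.5% of kept ones, and peaks between genes made up 35.6%, 39.9% and 29.4%. Narrow kept peaks were also more often distal, since 17.8% of kept control peaks of 250 to under 400 bp were promoter peaks, beside 9.83% of lost and 9.49% of gained peaks of that width. The median distance of distal peaks to the nearest start was 26.3 kb for gained, 21.4 kb for lost and 21.8 kb for kept peaks.

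Over all widths, fewer changed than kept peaks overlapped H3K4me1. In control liver 55.8% of kept, 34.2% of lost and 39.3% of gained peaks overlapped an H3K4me1 peak, and in E1/E2-KO liver the shares were 46.4%, 27.8% and 36.3%. Gained peaks thus overlapped the control H3K4me1 list at least as often as the E1/E2-KO list, which was shorter (50922 against 54181 peaks). Among peaks of 250 to under 400 bp, E1/E2-KO H3K4me1 overlapped 38.0% of gained peaks (36.7 to 39.4%), 39.3% of kept peaks of either list and 27% of lost peaks, so that at this width gained and kept peaks were close. Control H3K4me1 overlapped 41.2% of gained, 33.0% of lost and 47.9% of kept control peaks of this width. An H3K4me1 peak in E1/E2-KO liver alone was found at 9.51% of gained peaks (9.01 to 10.0%) and 7.05% of lost peaks (6.63 to 7.49%). Neither H3K4me1 list overlapped 51.1% of gained and 58.8% of lost peaks. Within control H3K27me3 regions, 44.9% of gained peaks overlapped control H3K4me1, compared with 30.8% of lost and 67.3% of kept control peaks.

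The male lists, which the rule did not use, were set beside these classes. Gained peaks overlapped an H3K27ac peak of E1/E2-KO male liver in 41.5% of cases (40.6 to 42.4%) and one of control male liver in 6.57% (6.15 to 7.02%). Lost peaks did so in 37.6% and 12.2%. The control male list was shorter than the E1/E2-KO male list (28862 against 55055 peaks), and kept control peaks, too, overlapped the former in 63.4% and the latter in 91.2% of cases. Gained peaks were therefore at a lower share than lost peaks in control male liver and at a higher one in E1/E2-KO male liver, both between groups whose list lengths differ.

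At promoters the gains were mostly at genes whose start lay in H3K27me3. Of 21410 protein-coding genes with an annotated transcript start, 11176 (52.2%) had a promoter peak in both lists, 533 (2.49%) had one in E1/E2-KO liver alone and 395 (1.84%) in control liver alone. The start lay in a control H3K27me3 region for 432 of the 533 genes with a gained promoter peak (81.1%, 77.5 to 84.2%) and for 247 of the 395 with a lost one (62.5%, 57.7 to 67.2%), beside 34.8% of all genes. In E1/E2-KO liver 397 (74.5%) and 216 (54.7%) of these starts lay in H3K27me3 regions, beside 33.7% of all genes. At most promoters with a gained peak, H3K27me3 and H3K27ac were thus both called in E1/E2-KO liver, which in whole liver may or may not be on the same cells.

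Where H3K27me3 covered the start in both groups, 385 of 4083 genes without a control promoter peak gained one (9.43%, 8.57 to 10.4%). Where it covered the start in neither group, 89 of 4804 did (1.85%, 1.51 to 2.27%). Losses were also more frequent under the mark, at 199 of 1934 genes with a control promoter peak (10.3%, 9.01 to 11.7%) against 131 of 7966 (1.64%, 1.39 to 1.95%). Genes whose start lay in H3K27me3 in control alone gained a promoter peak in 47 of 594 cases (7.91%, 6.0 to 10.4%). Promoter peaks called in both lists were narrower under H3K27me3, with a median of 783 bp of the promoter windows covered in control liver against 1228 bp outside it, which moves with the higher turnover there; its part in the turnover was not tested.

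**Figure D3:**
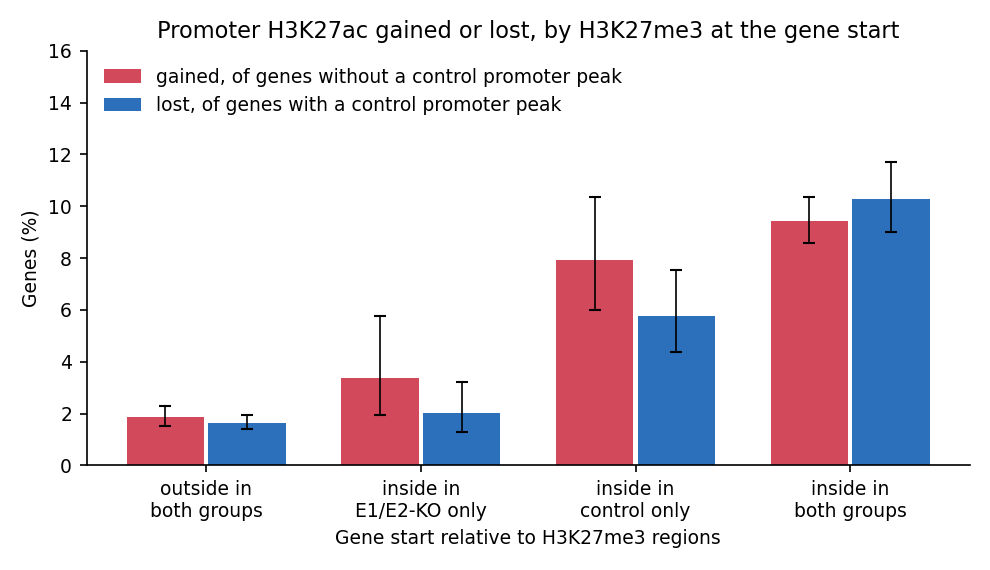
Percent of genes whose promoter H3K27ac peak was gained (of genes without one in control liver) or lost (of genes with one), grouped on the horizontal axis by whether the gene start lay in H3K27me3 regions. Error bars are Wilson 95% intervals; gains went from 1.85% outside H3K27me3 to 9.43% inside it in both groups, and losses from 1.64% to 10.3%.

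The genes with the most promoter bases newly covered were Cdk14, a cyclin-dependent kinase of Wnt signalling (1430 bp), Sall4 (1372 bp), Mdfi, an inhibitor of myogenic factors (1228 bp), Igf2bp3 (1197 bp), Satb1, a chromatin organizer of T cells (1112 bp), and Zic4, a cerebellar zinc finger factor (1069 bp). None of these 6 promoters had a base covered in control female liver, and all 6 starts lay in control H3K27me3 regions. At Mdfi the start was outside H3K27me3 in E1/E2-KO liver, and at the other 5 it remained inside. All 6 had a promoter peak in E1/E2-KO male and none in control male liver. Of all 533 genes with a gained promoter peak, 303 (56.8%) had one in E1/E2-KO male and 28 (5.25%) in control male liver. For the 395 genes with a lost promoter peak these counts were 199 (50.4%) and 57 (14.4%). The control male list was the shorter one (28862 against 55055 peaks), which limits both comparisons.

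Among genes with a lost promoter peak, the most promoter bases in control liver were covered at Arhgap9, a GTPase-activating protein of blood cells (1068 bp). Next came Slc10a2, the apical sodium-dependent bile acid transporter (973 bp), Fcna, a ficolin of macrophages (968 bp), and Spp1, the matrix protein osteopontin (960 bp). Vcan, the matrix proteoglycan versican (887 bp), and C6 (859 bp) followed. The start was in H3K27me3 in both groups at Arhgap9, Spp1 and Vcan and in neither at Slc10a2, Fcna and C6. Control male liver had a promoter peak at 4 of these 6 genes, all but Spp1 and Vcan, and E1/E2-KO male liver at 5, all but Arhgap9, where the male lists changed in the same way as the female ones.

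Developmental regulators that Polycomb is known to silence, mostly transcription factors with a few secreted ligands, were described as a list of 34 genes, each with its start in H3K27me3 in both groups. A promoter peak was gained at 7 of them (20.6%, 10.3 to 36.8%), beside 6.40% of the 6017 genes whose start lay in H3K27me3 in both groups and 2.49% of all genes, and lost at 1. They included Pax6 of the eye and pancreas (629 bp of promoter covered), Nkx2-5 of the heart (523 bp), Tbx15 of the limb and skeleton (505 bp), Gata3 of T cells (355 bp) and Sox2 of stem cells (24 bp, the edge of a peak). The loss was at Sox17, an endoderm and endothelial factor. A gained peak lay within 10 kb of 22 of the 34 genes (64.7%) and a lost peak within 10 kb of 5 (14.7%), compared with 29.5% and 32.6% of all 21418 genes. Among all genes shorter than 10 kb, the size of most of this list, the shares were 15.0% and 17.1%. The list gathered 38 gained and 7 lost peaks beside 19 shared ones. Of the E1/E2-KO sites near the list 66.7% were gained, and of the control sites 26.9% were lost. Around all genes these shares were 21.8% and 24.7%, so that the share of lost sites was near that around all genes.

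Runs of gained peaks without a shared peak nearby marked some of the same loci. Sites of both lists were stitched into clusters at the distance commonly used to define super-enhancers. Of 23686 clusters, 3363 held gained peaks alone and 2478 lost peaks alone, of which 2856 and 2132 were single peaks and 507 and 346 held at least 2, and most of the changed peaks stood in a cluster with a shared site (70.0% of lost and 59.4% of gained peaks). The gained cluster with the most peaks had 6, in Tcfap2a (chr13:40814827-40827156), widths 207 to 525 bp, all in H3K27me3 in both groups. Of these 6 peaks, 5 were called in E1/E2-KO male and 0 in control male liver. A cluster of 4 gained peaks lay at Hoxd8 in the Hoxd gene cluster (chr2:74536142-74550383), also in H3K27me3 in both groups. Further clusters of 4 lay in Bach2, a repressor of lymphocyte differentiation, at Nme5, a protein of sperm, and 109715 bp from the start of Fam20c, a Golgi kinase. At Bach2 the cluster lay outside H3K27me3 in control liver, and 88.0% of its length lay in H3K27me3 of E1/E2-KO liver.

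The lost cluster with the most peaks held 8, over 36888 bp across and beyond the 3' end of Nr5a2, which encodes LRH-1, a nuclear receptor of bile acid synthesis (chr1:138720330-138757217), with 36.0% of its length in control H3K27me3. The Nr5a2 promoter peak itself was kept, with 596 and 612 bp covered. Other lost clusters lay in Ap2a2, an endocytic adaptor (5 peaks), and, with 4 peaks each, in Ubash3b, a phosphatase, in Nrp1, a VEGF co-receptor, and at BC055111. The Ubash3b cluster lay in control H3K27me3, whereas those at Ap2a2, Nrp1 and BC055111 did not.

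**Figure D4:**
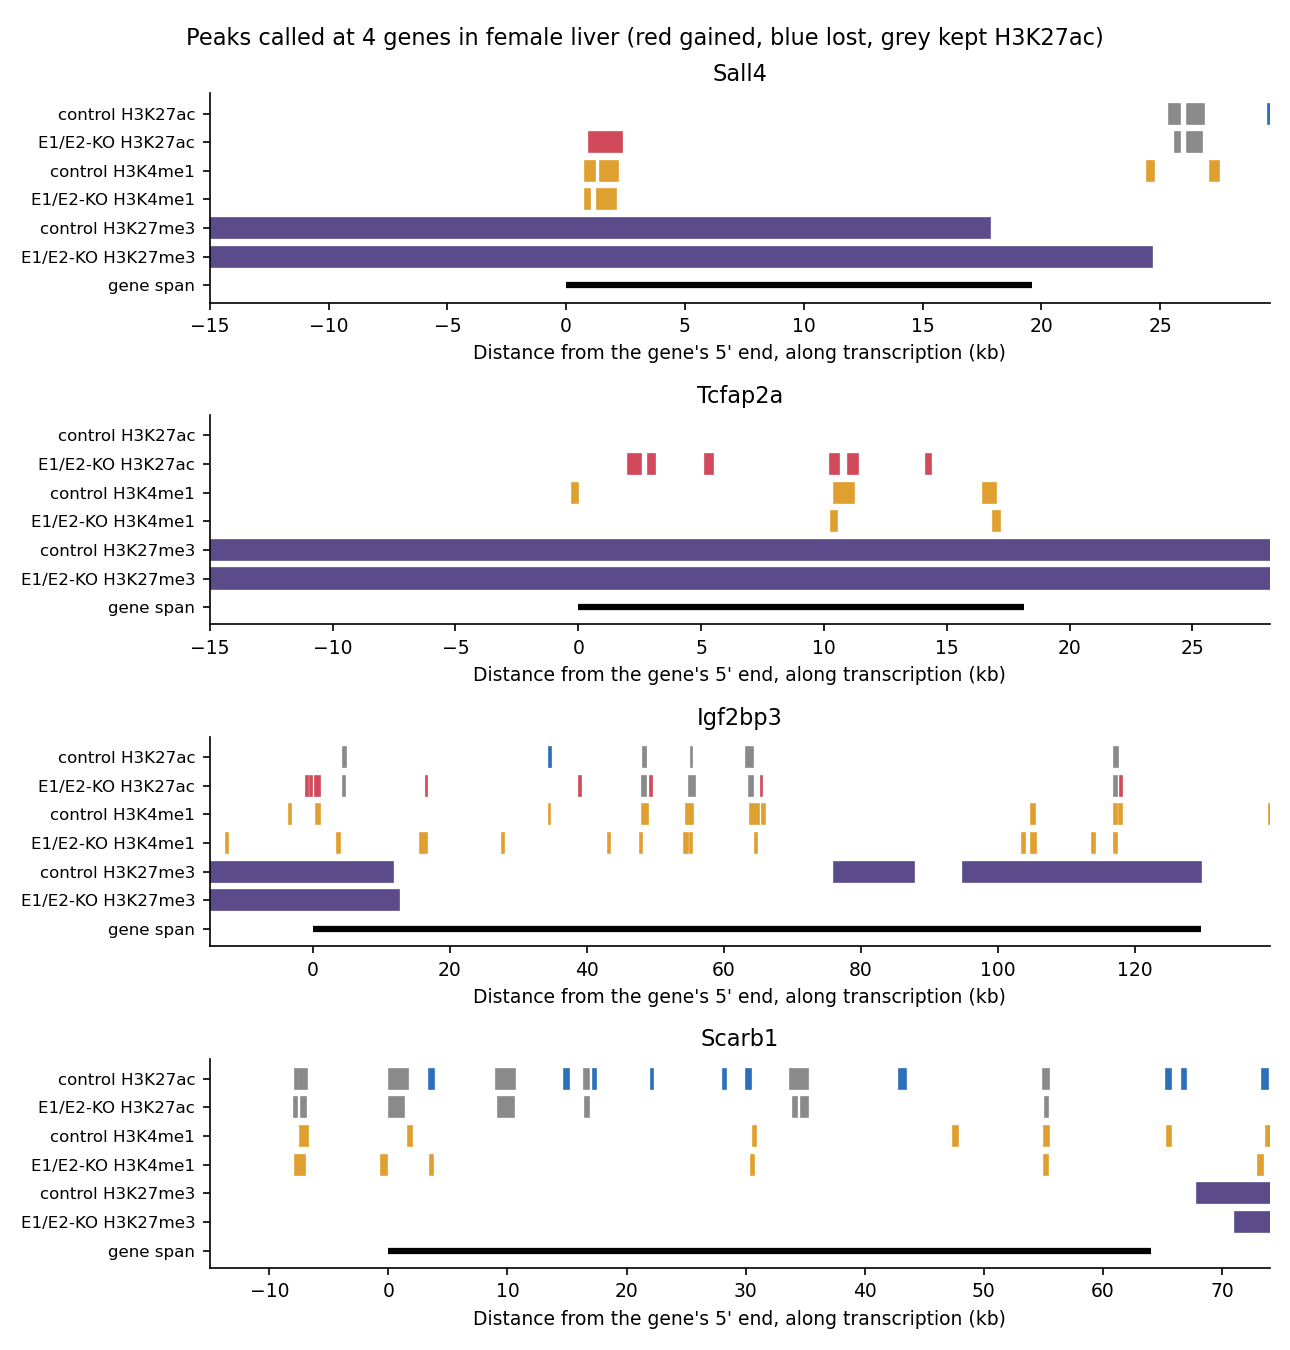
Peaks and regions called in control and E1/E2-KO female liver around Sall4, Tcfap2a, Igf2bp3 and Scarb1, drawn to scale by distance in kb from the 5' end of each gene (black bar). Gained H3K27ac peaks (red) stand in H3K27me3 (purple) at Sall4 and at all 6 sites of Tcfap2a, while the 10 lost peaks of Scarb1 (blue) stand among kept ones (grey).

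Individual genes gathered many peaks of the same class. The largest excess of gained over lost peaks within 10 kb was at Zbtb7c, a zinc finger factor, with 14 gained and 1 lost. It was followed by Sdk1, a synaptic adhesion protein (12 and 0), and Prdm16, a factor of brown fat and haematopoietic stem cells (9 and 0), whose promoter peak was also gained (672 bp). Tox, a T cell factor (10 and 2), D18Ertd653e (11 and 3) and Ntrk2, the BDNF receptor (9 and 1), came next. At Ntrk2 the promoter window was covered over 241 bp in control and 1695 bp in E1/E2-KO liver. The start lay in H3K27me3 in control liver at Zbtb7c, Sdk1, Prdm16 and Ntrk2, but not at Tox or D18Ertd653e. These are long genes, and among genes of at least 100 kb 62.7% had a gained and 57.7% a lost peak.

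On the side of losses, Hipk2, a kinase of the DNA damage response, had 12 lost and 0 gained peaks beside 8 shared ones, and its promoter window was covered over 1505 bp in control and 1144 bp in E1/E2-KO liver. Scarb1, the hepatic receptor for high density lipoprotein, had 10 lost and 0 gained peaks and 7 shared ones, with 1610 and 1266 bp of promoter covered. Lpp, a focal adhesion protein, had 19 lost and 7 gained, Dapk1, a death-associated kinase, 10 and 1, and Cdh2, N-cadherin, 10 and 1. Fgfr2 counted 33 lost and 17 gained peaks, but its annotated span of 3009069 bp takes in neighbouring genes. At Hipk2, Scarb1, Lpp and Dapk1 the start was outside H3K27me3 in both groups, and in each of these 6 genes the promoter peak was kept.

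Genes of hepatocyte function mostly had kept promoter peaks. These genes carry many peaks, so the share of genes with a changed peak was read beside the share of the peaks near them that changed. Near all genes, 24.7% of the control sites were lost (lost over lost and shared) and 21.8% of the E1/E2-KO sites gained. Of 26 plasma protein genes, 24 had a promoter peak in both lists, and a lost peak lay within 10 kb of 20 (76.9%) against a gained peak near 9 (34.6%), beside 32.6% and 29.5% of all genes. The median span of the list was 9519 bp, and genes under 10 kb had 17.1% and 15.0%. By peaks, 26.3% were lost and 10.9% gained, so that losses were near and gains below the share around all genes. C3, the complement component, had 4 lost and 0 gained peaks, Alb 3 and 0, and Apoe 0 and 3. The promoter peak was gained at Fgb (214 bp) and lost at Serpina1c (235 bp), one of several near-identical alpha-1-antitrypsin genes among which reads may not map uniquely. Of 13 periportal genes 11 (84.6%) had a lost peak and 4 (30.8%) a gained one, beside 33.7% and 27.5% of all genes of 10 to 30 kb, which holds the median span of this list, and by peaks 34.7% were lost and 16.1% gained. Ctsc, Hal and Sds each had 3 lost and 0 gained. Among 14 pericentral genes the counts were 10 and 8, with Slc1a2, a glutamate transporter, at 0 lost and 6 gained and Nkd1, a Wnt target, at 4 and 0. These are 71.4% and 57.1% of the list, whose median span also fell in the range of 10 to 30 kb (33.7% and 27.5%). By peaks 28.8% were lost and 23.0% gained, near the 24.7% and 21.8% around all genes.

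Genes of bile acid synthesis and transport had promoter peaks in both lists at 21 of 21, beside 52.2% of all genes. A gained peak lay within 10 kb of 47.6% and a lost peak within 10 kb of 61.9% of them, beside 42.0% and 46.6% of all genes of 30 to 100 kb, but by peaks 20.5% were gained and 21.8% lost, near the shares around all genes. Cyp7a1, the rate-limiting enzyme of bile acid synthesis, had 3 lost and 0 gained peaks, and its promoter was covered over 926 bp in control and 409 bp in E1/E2-KO liver. Abcc4 had 10 gained and 3 lost peaks, and its promoter coverage was 237 bp in control and 1275 bp in E1/E2-KO liver, with the start in H3K27me3 in control liver alone. All 24 genes of lipid and cholesterol synthesis had a promoter peak in both lists as well, with a gained peak near 54.2% and a lost peak near 70.8%, beside 27.5% and 33.7% of all genes of 10 to 30 kb, and 19.7% and 22.5% by peaks. Scd1, the stearoyl-CoA desaturase, had 3 lost and 0 gained peaks, and Acacb, an acetyl-CoA carboxylase, 0 and 3.

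**Figure D5:**
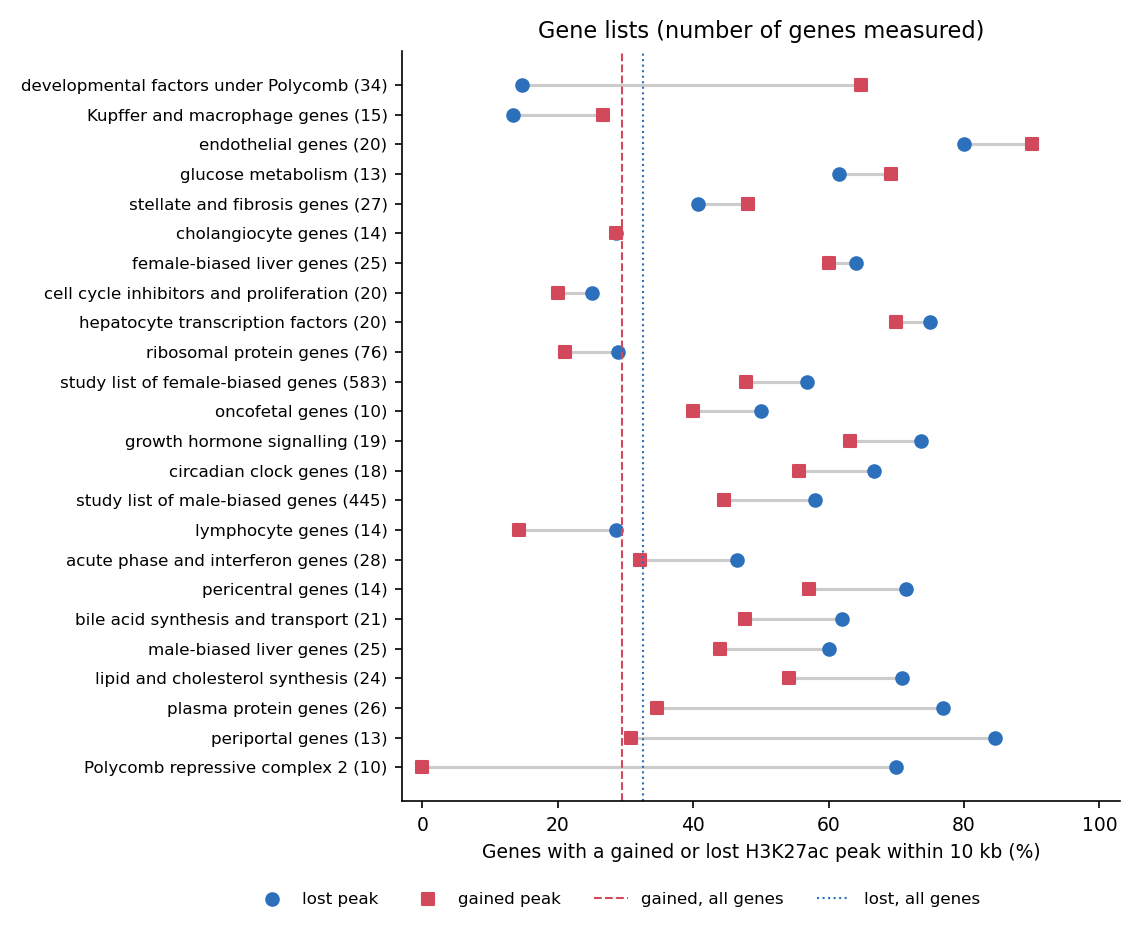
Percent of the genes of each list (number measured in parentheses) with a gained (square) or a lost (circle) H3K27ac peak within 10 kb of the span, with lines for all protein-coding genes (29.5% gained, 32.6% lost). Among the lists plotted, which leave out the short marker lists, developmental factors have the largest excess of gained over lost and the genes of Polycomb repressive complex-2 the largest of lost over gained.

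Growth hormone shapes the sex differences of the liver, and its pathway was measured at 19 genes. The promoter peak was in both lists at 18 and gained at 1, the receptor adaptor Grb10 (956 bp). Ghr, the growth hormone receptor, had 12 lost and 4 gained peaks. Hand-listed female-biased genes had a promoter peak in both lists at 12 of 25, gained at 1 and lost at 2, with 52.2%, 2.49% and 1.84% of all genes for comparison. The gain was at Cyp3a16, with 4 gained and 0 lost peaks and 199 bp of promoter covered, and the losses at Cyp2c40 and Cyp2c69, of 241 and 412 bp. These P450 genes lie in families of near-identical copies, where reads may be shared. Prlr, the prolactin receptor, had 8 lost and 3 gained peaks, and Ntrk2 had 1 lost and 9 gained. By peaks, 31.7% were lost and 34.3% gained near the female-biased list, beside 24.7% and 21.8% around all genes. Hand-listed male-biased genes gained no promoter peak and lost that of C6 among 25, and Hsd3b5, a steroid dehydrogenase, kept its promoter peak with 1171 bp covered in control and 290 bp in E1/E2-KO liver.

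The sex-biased genes that the study selected by expression in this model are not independent of it, and 583 of 644 female-biased and 445 of 487 male-biased genes were matched by symbol on the autosomes. The promoter peak was gained at 20 female-biased genes (3.43%, 2.23 to 5.24%) and lost at 27 (4.63%, 3.20 to 6.65%), beside 2.49% and 1.84% of all genes. At male-biased genes it was gained at 3 (0.674%, 0.230 to 1.96%) and lost at 9 (2.02%, 1.07 to 3.8%). Only a gene without a control promoter peak can gain one, and these lists had fewer such genes. Both lists held the peak at 75.1% of female-biased and 84.7% of male-biased genes, beside 52.2% of all genes. Neither held it at 16.8% and 12.6%, beside 43.5%. The gained shares of these gene sets therefore cannot be compared directly with each other or with all genes. A lost peak lay within 10 kb of 56.8% of female-biased and 58.0% of male-biased genes, and a gained peak within 10 kb of 47.9% and 44.5%. For comparison, a lost peak lay near 32.6% and a gained peak near 29.5% of all genes. Among all genes of 10 to 30 kb, which holds the median span of both lists, the shares were 33.7% and 27.5%. By peaks, 27.4% were lost and 23.6% gained near female-biased genes, and 27.5% and 20.5% near male-biased genes, close to the 24.7% and 21.8% around all genes.

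Markers of other liver cell types moved with some of these lists. For comparison, a promoter peak was gained at 2.49% and lost at 1.84% of all genes, and at 6.40% and 3.31% of genes with the start in H3K27me3 in both groups. Among 20 endothelial genes, a promoter peak was gained at Cdh5 (VE-cadherin), Clec4g, Egfl7, Stab2 and Tek (25%, 11.2 to 46.9%), of 151 to 388 bp, and lost at Sox17. Of the gained promoters, Cdh5 had a peak in E1/E2-KO male liver alone, Tek in both male lists, and Clec4g, Egfl7 and Stab2 in neither. A gained peak lay near 18 (90%) and a lost peak near 16 (80%), beside 42.0% and 46.6% of all genes of 30 to 100 kb (the median span of the list was 43178 bp). By peaks, 50% were gained and 45.7% lost, beside 21.8% and 24.7% around all genes, so both shares were high. Of 8 defining endothelial markers, 4 promoters were in both lists, 3 were gained and 1 was in neither. Kupffer cell markers had 1 gained promoter peak of 7, that of Spic, and neither stellate nor cholangiocyte markers gained or lost a promoter peak among 8 each. A gained peak lay within 10 kb of 5 of the 8 stellate markers (62.5%) and a lost peak within 10 kb of 1, beside 2 and 2 of the 8 cholangiocyte markers and 27.5% and 33.7% of all genes of 10 to 30 kb. Lymphocyte markers lost 2 of 8, Lck and Ptprc (385 and 549 bp). Hepatocyte markers had 7 of 8 promoters in both lists, all but Serpina1c, and a lost peak near each of the 8, while 31.0% of the control sites near them were lost, beside 24.7% around all genes. The part of the cell composition in these results was not tested.

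Fibrosis and stellate genes lost 2 promoter peaks of 27, Spp1 and Col5a2, a fibrillar collagen (430 bp), and gained none, with 24 of these starts in control H3K27me3. A gained peak lay within 10 kb of 13 of the 27 (48.1%) and a lost peak within 10 kb of 11 (40.7%). Among all genes of 10 to 30 kb, which holds the median span of this list, these shares were 27.5% and 33.7%. By peaks, 33.3% were gained and 37.8% lost, beside 21.8% and 24.7% around all genes. For this and the following lists, a promoter peak was gained at 2.49% and lost at 1.84% of all genes, and at 6.40% and 3.31% of those with the start in H3K27me3 in both groups, so that single calls in lists of this size are near the background. Cholangiocyte genes gained 1 of 14, that of the tight junction gene Cldn7, and lost that of Spp1. Oncofetal genes gained 2 of 10, Igf2bp3 and Sall4. Afp, the fetal serum protein, had no promoter peak in either list. Igf2bp2 had 471 bp of promoter covered in control and 915 bp in E1/E2-KO liver. Proliferation genes and cell cycle inhibitors lost 2 of 20, the mitotic genes Top2a (665 bp) and Ccnb1 (488 bp). Acute phase and interferon genes lost the promoter peaks of Saa1, Cxcl10 and Oas1a and gained that of Ifit2, among 28. The start lay in control H3K27me3 at 1 of the 28. Outside H3K27me3 in both groups, 1.03% of genes lost and 0.697% gained a promoter peak. At Saa1, Cxcl10 and Oas1a the male lists went the other way, with a promoter peak in E1/E2-KO and none in control male liver.

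The genes of Polycomb repressive complex-2 itself had promoter peaks in both lists at 10 of 10, with no gained peak near any of them and lost peaks near 7 (70.0%, 39.7 to 89.2%), beside 42.0% and 46.6% of all genes of 30 to 100 kb. By peaks 26.8% were lost, near the share around all genes. Ezh1 and Ezh2 each had 2 lost and 0 gained peaks. Their promoter windows were covered over 593 and 1761 bp in control and 485 and 1457 bp in E1/E2-KO liver, and peak positions do not report the deletions themselves. Ribosomal protein genes, a reference set of 76 genes active in all cells, had 67 promoters in both lists (88.2%), 1 gained and 0 lost. For all genes these shares were 52.2%, 2.49% and 1.84%. A gained peak lay near 21.1% and a lost peak near 28.9% of the set, beside 15.0% and 17.1% of all genes under 10 kb. By peaks 10.5% were gained and 14.0% lost, beside 21.8% and 24.7% around all genes.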

How the data were processed

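ChIP-seq reads (paired-end) of the livers of a group were joined by the authors, mapped with Bowtie2 (version 2.3.2) to mm9 and passed to MACS2 2.1.1 with its defaults (H3K27ac, H3K4me1) or to SICER 1.1 (H3K27me3). The deposited lists give chromosome, start, end and name, with no score or count, so the unit is a genomic position. The labels list 4 livers per group and mark, except 3 for the H3K4me1 list of E1/E2-KO females. They give 1% formaldehyde, and 3 µg of H3K27ac antibody per 15 µg of chromatin.

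Peaks on autosomes counted as overlapping when they shared 1 bp or more. Starts were read as counted from 0, and 1 base was added to SICER ends. Genes, exons and starts came from GENCODE release M1 on NCBIM37, whose chromosomes contained all peaks. Peaks were assigned to genes within 10 kb of the span, and neighbouring sites were stitched at the distance usual for super-enhancers. A promoter counted as gained or lost by the bases covered within 1 kb of its starts. Hence a peak that overlapped a control peak outside this window could still give a gained promoter, as at Cldn7. Sequence was read in windows of 200 bp for 11 motifs.

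Named genes were those with the largest excess of gained or lost peaks, the nearest genes of the largest clusters, the promoters with most bases gained or lost, and the most changed members of each list. The widest peaks and the 250 to under 400 bp range were added after the data were seen. Members, lists and rules were chosen with earlier results of these data known. Alternatives were a 50% overlap, merged peaks, all chromosomes, a 1 kb tolerance, the widest peaks, other promoter definitions, stitching at 5 kb and other gene distances. The scripts ran under Python 3.11.15 with NumPy 2.4.6, SciPy 1.17.1 and matplotlib 3.10.9, and were tested on simulated data. Some items are not reported here.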

Additional observations from a re-analysis of the deposited data

How the results depend on the processing

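The lost share of control peaks was 36.8% when 50% of a peak had to be covered, 23.9% when peaks within 1 kb were merged, 17.5% when a peak within 1 kb counted as kept and 7.13% among the widest 50% of the peaks. The gained share was 29.1%, 25.1%, 17.6% and 7.44% under the same settings. It was above the lost share with merged peaks and below it with a 50% overlap. With the 1 kb tolerance the intervals overlapped (17.2 to 17.8% lost, 17.3 to 18.0% gained). They also overlapped among the widest 50% (6.81 to 7.46% lost, 7.12 to 7.77% gained). On all chromosomes the shares were 27.9% and 24.9%. Promoter shares were 17.0% of lost, 14.8% of gained and 41.6% of kept peaks within 3 kb of a start, and 13.8%, 12.7% and 40.9% with the starts of all transcripts. In the range of 250 to under 400 bp the kept share was 17.8%. With an H3K4me1 peak within 1 kb, 52.5% of lost peaks met control H3K4me1 and 52.6% of gained peaks met E1/E2-KO H3K4me1, and in the range of 250 to under 400 bp these shares were 33.0% and 38.0%. The share of gained peaks in control H3K27me3 was 32.1% with 50% of the peak inside and 32.8% in that range. Stitching at 5 kb gave 6267 gained-only and 5335 lost-only clusters. A gained peak lay within 50 kb of 11617 genes and in the span of 4124, and a lost peak near 12157 and in 4537.

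Leaving out a liver was not run and the spread between livers is unknown, because the lists were called on joined reads. No paired analysis was possible because the replicate numbers of the livers are not carried into the lists. The depth behind the lists is unknown, which limits every share given here.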

Other observations

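On the X chromosome, which the comparison did not include, 221 of 844 control peaks were lost (26.2%, 23.3 to 29.3%) and 169 of 827 E1/E2-KO peaks were gained (20.4%, 17.8 to 23.3%). Across autosomes the lost share ran from 26.4% on chromosome 5 to 30.8% on chromosome 14, and the gained share from 22.6% on chromosome 19 to 27.6% on chromosome 14.

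Circadian clock genes had a promoter peak in both lists at 18 of 18, beside 52.2% of all genes. Cry2, a clock repressor, had 3 gained and 0 lost peaks, Bhlhe40 0 and 2, and Hlf, a PAR bZIP factor, 3 and 1. Hepatocyte transcription factors kept the promoter peak at 19 of 20 and lost it at Onecut2 (573 bp), where the start lay in H3K27me3 in both groups. Of all genes, 52.2% had the peak in both lists and 1.84% lost it, and 3.31% of those with the start in H3K27me3 in both groups lost it. By peaks, 21.2% were lost and 20.6% gained near these factors, close to the 24.7% and 21.8% around all genes. Esrrg had 9 gained and 5 lost peaks beside 15 shared ones, and Nr1i2, the pregnane X receptor, 4 and 1. Among genes of glucose metabolism, Igfbp1 and Tat each had 2 gained and 0 lost peaks, and Ppargc1a 1 and 3.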
